A study of Capra hircus with 12 samples.

Results

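The miR-17-92 cluster and its paralogues are a family of small regulatory RNAs, followed here in the skin of cashmere goat embryos at E45, E55 and E65, where the number is the embryonic day. The members were chosen by name: a row of the deposited miRNA table belonged to them if its sheep miRNA name, without the arm ending, was 1 of 14 names of the family. Of these 14 names 5 had a row, so the members were 5 of the 649 rows: miR-17-5p, miR-106a, miR-106b, miR-19b and miR-25. No row carried the name miR-18a, miR-18b, miR-19a, miR-20a, miR-20b, miR-92a, miR-92b, miR-93 or miR-363. As 498 of the 649 rows carry an identifier in place of a miRNA name, a member may be listed without its name, and rows were therefore also compared by sequence below.

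The embryos were untreated Inner Mongolia cashmere goats, and the skin was taken from the mid flank. For each stage the skin of 3 embryos was pooled before RNA extraction, and 1 small RNA library was made from the pool. Each stage is therefore 1 sample, the spread between embryos is not visible, and no test between stages could be made. Fewer cells that express a miRNA and less of it per cell cannot be told apart in such pools. The values are RPM, the reads of a row scaled so that all listed rows of a library sum to the same total, with no division by length. One read was worth 0.407 RPM at E45, 0.242 RPM at E55 and 0.426 RPM at E65, which corresponds to 2455305, 4125618 and 2344980 reads, so the E55 library was the deepest. Intervals given below are exact 95% Poisson intervals for a level and exact conditional binomial intervals for a ratio, and they cover counting error only.

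The miR-17-92 transcript is a polycistron, a single RNA from which several hairpins are cut, and vertebrates carry related clusters named miR-106a-363 and miR-106b-25. These miRNAs are known for favouring cell cycle progression and survival in growing tissue, their transcription is activated by MYC and E2F factors, and miR-106b, 93 and 25 are cut from an intron of MCM7, which encodes a part of the replicative helicase. A miRNA recognises its targets mainly through its seed, bases 2 to 8 from the 5′ end, and the family holds several different seeds. In the goat annotation of RefSeq (assembly ARS1.2), MIR17, MIR18A, MIR19A, MIR20A, MIR19B and MIR92A are neighbours on chromosome 12, and MIR106B, MIR93 and MIR25 are neighbours on chromosome 25 inside the bounds of MCM7. MIR106A, MIR18B, MIR20B, MIR92B and MIR363 are neighbours on a sequence not placed on a chromosome. These symbols are those of the annotation, and miR-92b is otherwise known as encoded on its own. All 14 names of the rule have a goat gene in the annotation. The build behind the deposited identifiers is not given in the sources used here, so no coordinates are printed.

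The sequences listed for the 5 members are shown first because the results divide by seed. They are written 5′ to 3′ with T for U, as deposited, and the capitals mark the seed.
miR-17-5p: cAAAGTGCttacagtgcaggta
miR-106a: aAAAGTGCttacagtgcaggt
miR-106b: tAAAGTGCtgacagtgcagat
miR-19b: tGTGCAAAtccatgcaaaactga
miR-25: ATTGCACttgtctcggtctga

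miR-17-5p, miR-106a and miR-106b share the seed AAAGTGC, and miR-19b has the unrelated seed GTGCAAA. The listed miR-25 sequence starts with the letters ATTGCAC, which other rows hold at bases 2 to 8, so these first 7 letters were marked. Its own bases 2 to 8 are TTGCACT, and below the seed of miR-25 means the marked letters. Counted from 1 at the 5′ end over 21 shared bases, miR-106a differs from miR-17-5p by the single substitution C1A (the base of miR-17-5p first), and miR-106b differs from it by C1T, T10G and G20A. Reads of rows this alike could be divided between them by the authors' counting, whose rule for mismatches is not given in the sources used here, so the levels of miR-17-5p and miR-106a are uncertain in this respect.

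miR-17-5p, the first miRNA of the cluster that gives it its name, had 140.5 RPM at E45 (345 reads, interval 126 to 156 RPM), 39.5 RPM at E55 (163 reads, 33.7 to 46.1) and 60.6 RPM at E65 (142 reads, 51.0 to 71.4). It was highest at E45 and lowest at E55, and the 3 counting intervals did not overlap. In E55 vs. E45 the ratio of its levels was 0.281 (interval 0.232 to 0.340), and in E65 vs. E55 it was 1.53 (1.22 to 1.93).

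miR-106a, its paralogue from the miR-106a-363 cluster, had 13.0 RPM at E45, 1.45 RPM at E55 and 2.13 RPM at E65. These levels rest on 32, 6 and 5 reads, all above the limit of 3 reads that a count of 0 allows. The ratio was 0.111 in E55 vs. E45 (interval 0.0381 to 0.271), and in E65 vs. E55 it was 1.47 with an interval of 0.354 to 5.77, so a difference between E55 and E65 was not detectable at this depth.

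miR-106b, encoded in the MCM7 intron, was the most abundant of the 3 members with this seed. It had 1375 RPM at E45 (3377 reads), 463 RPM at E55 (1911 reads) and 734 RPM at E65 (1722 reads). The E55 level was 0.337 of the E45 level (interval 0.318 to 0.356), the E65 level was 1.59 times the E55 level (1.48 to 1.69), and the E65 level was 0.534 of the E45 level (0.504 to 0.566). The ratio of miR-17-5p to miR-106b was 0.102 at E45 (0.0912 to 0.114), 0.0853 at E55 (0.0722 to 0.1001) and 0.0825 at E65 (0.0690 to 0.0979), with overlapping counting intervals throughout.

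miR-19b, a member known as a main oncogenic component of the cluster, was the most abundant of the 5 in every library. It had 7282 RPM at E45 (17880 reads), 4965 RPM at E55 (20484 reads) and 11900.4 RPM at E65 (27906 reads), ranks 27, 42 and 19 of the 649 rows. It was thus lowest at E55, like the members with the miR-17 seed, but highest at E65, where they stood below their E45 level. The ratio was 0.682 in E55 vs. E45 (interval 0.668 to 0.696), 2.40 in E65 vs. E55 (2.35 to 2.44) and 1.63 in E65 vs. E45 (1.60 to 1.67). Relative to miR-106b, the level of miR-19b was 5.29 at E45 (5.10 to 5.49), 10.7 at E55 (10.2 to 11.2) and 16.2 at E65 (15.4 to 17.02), with intervals apart from each other.

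miR-25, whose gene lies like that of miR-106b inside the bounds of MCM7, had 137 RPM at E45 (337 reads, interval 123 to 153), 103 RPM at E55 (423 reads, 92.99 to 113) and 94.3 RPM at E65 (221 reads, 82.2 to 108). It was the only member whose listed level was lower at each later stage, but the ratio in E65 vs. E55 was 0.919 with an interval of 0.778 to 1.08, and it became 1.02 when the 10 most abundant rows were left out of the library totals. Relative to miR-106b its level was 0.0998 at E45, 0.221 at E55 and 0.128 at E65 (intervals 0.0890 to 0.112, 0.199 to 0.246 and 0.111 to 0.148), so these members from within the same gene did not keep a fixed ratio in the libraries.

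**Figure D1:**
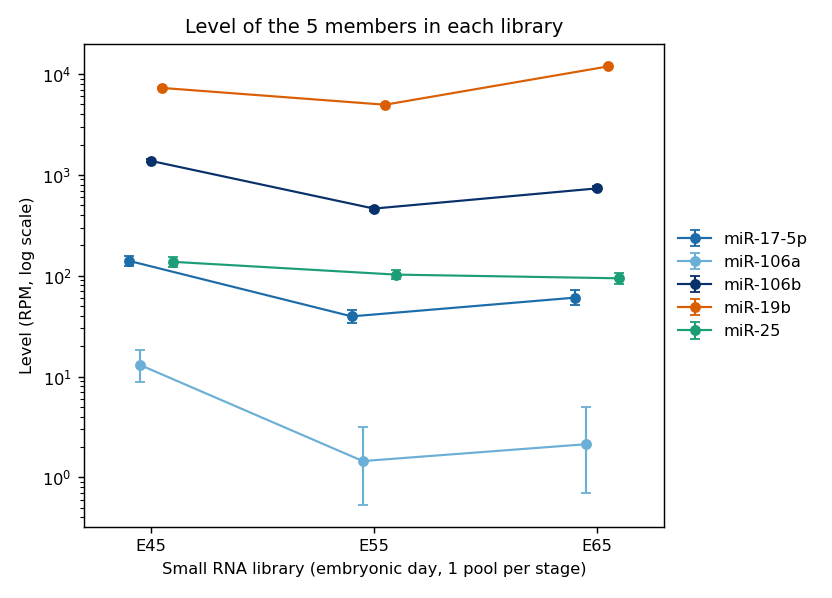
Level of each member in RPM (log axis) in the E45, E55 and E65 small RNA libraries, 1 pool per stage, with exact 95% Poisson intervals as bars. miR-19b is highest at E65 with 11900.4 RPM, while miR-17-5p, miR-106a and miR-106b are highest at E45, and miR-106a has the widest bars because it rests on 32, 6 and 5 reads.

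The members were then set beside all rows of the table. Ratios were taken as the log2 of (RPM + 1) in the later over the earlier library, a scale on which changes of low rows are understated, and rows above 3 reads in at least 1 of the compared libraries were used. All 5 members passed this limit in each comparison. In E55 vs. E45 all 5 members were lower, with a median log2 ratio of -1.57 and a range from -2.52 for miR-106a to -0.42 for miR-25. The value of miR-106a depended on the pseudocount, the 1 RPM added. It was -1.01 with pseudocount 10 and -3.08 with pseudocount 0.1. The median of all 605 rows was -0.26, and 64.6% of them were below 0. Among the other 139 rows with a sheep miRNA name the median was 0.19, and 37.4% were below 0. miR-17-5p (-1.80), miR-106a and miR-106b (-1.57) were lower by at least 1 on this scale, 3 of 5 members, against 18.8% of all rows. None of the members was higher by that amount, against 4.79% of all rows.

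In E65 vs. E55 the median log2 ratio of the members was 0.60, against -0.14 for all 589 rows, of which 41.3% were above 0, and -0.55 for the other 140 rows with a sheep name. The ratios were 1.26 for miR-19b, 0.66 for miR-106b, 0.60 for miR-17-5p, 0.35 for miR-106a and -0.12 for miR-25. Only miR-19b was higher by at least 1, 1 of 5 members, against 6.79% of all rows, and none was lower by that amount, against 18% of all rows. Across E45 to E65 the members did not return to a common level. The median log2 ratio in E65 vs. E45 was -0.90, against -0.48 for all 579 rows, and the values ran from -2.16 for miR-106a to 0.71 for miR-19b. miR-106a and miR-17-5p (-1.20) were lower by at least 1, 2 of 5 members, against 29% of all rows. None was higher by that amount, against 6.22%. With each library scaled to the median of its rows miR-19b was higher by at least 1 (1.11) and miR-17-5p was no longer lower by it (-0.81). With pseudocount 10 miR-106a was no longer lower by it (-0.92), and with scaling to the rows with a sheep name miR-106b was also lower by at least 1 (-1.10).

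Each library enters 2 of these 3 comparisons, so the comparisons are not independent. The scaling between libraries shifted all rows together. With median scaling the median of all rows in E55 vs. E45 was 0.02 in place of -0.26, and the median of the members was -1.24, so that the members lay 1.26 below all rows, against 1.31 on the deposited values. In E65 vs. E55 they lay 0.75 above all rows with median scaling and 0.74 above them on the deposited values. All members but miR-25, 4 of 5, were lowest at E55, an order found in 31.6% of the 611 rows above 3 reads in at least 1 library. For miR-106a, with 6 reads at E55 and 5 at E65, this order is not resolved by the counts, which leaves 3 members with counting intervals that set E55 apart as the lowest.

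**Figure D2:**
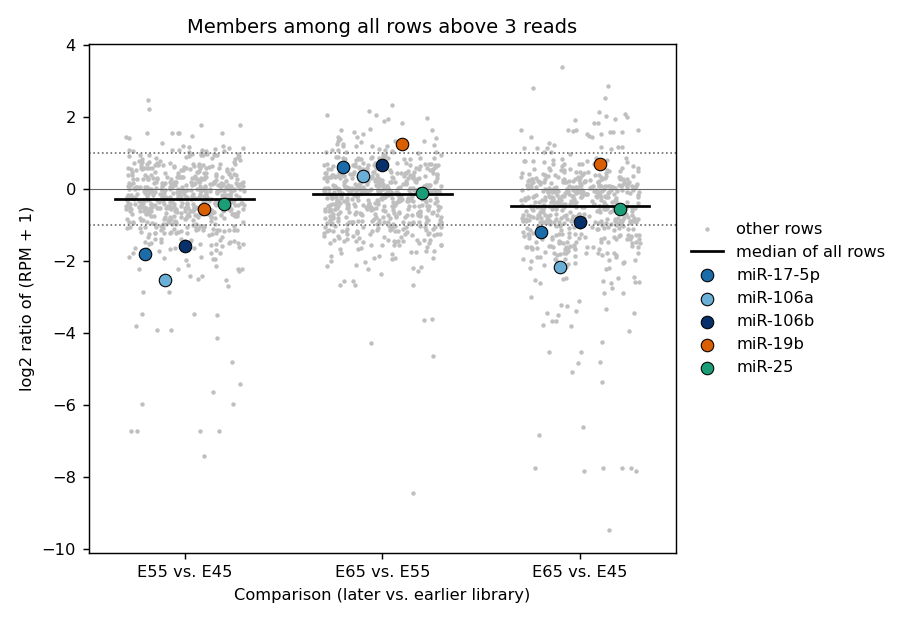
log2 ratio of (RPM + 1) in the 3 comparisons, with grey points for the other rows above 3 reads, a black line at the median of all rows and a coloured point for each member. Dotted lines mark 1 and -1. All 5 members lie below 0 in E55 vs. E45, against 64.6% of all rows. In E65 vs. E55, 4 of 5 lie above 0, against 41.3% of all rows.

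To see whether the pattern belonged to the named rows alone, the unnamed rows were searched for the same seeds. This search was made after the table had been seen, and it used the sequences and not the levels. Unnamed rows are identified by a chromosome and a running number, and no miRNA name was assigned to them here. In all, 8 unnamed rows held the marked letters of a member at bases 2 to 8, and they comprised 7 distinct sequences. They are printed because they hold most of the reads with the seeds of miR-17 and miR-25.
chr12_5782: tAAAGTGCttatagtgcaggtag
chr25_10686: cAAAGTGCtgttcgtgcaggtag
chrX_12834: cAAAGTGCtcacagtgcaggtag
chr12_5779: tGTGCAAAtctatgcaaaactga
chr12_5785: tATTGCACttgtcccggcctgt
chrX_12839: aATTGCACggtatccatctgcg
chr8_4267: tATTGCACattactaagttgc

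The row chrX_12837 has the same sequence and the same values as chr12_5785 and was counted once. With the 5 members, the 3 seeds were held by 12 of the 586 distinct sequences of the table. chrX_12834 differs from miR-17-5p by T10C over 22 shared bases, and chr12_5779 differs from miR-19b by C11T over 23, so here too the reads of near-identical rows may be divided between them. Beside these rows, unnamed rows with identifiers within 10 numbers of them on the same chromosome were looked at. They were kept only if their bases 2 to 8 recurred among such neighbours on another chromosome. The rows chrX_12824, chrX_12826, chrX_12828 and chr8_4269 were among those left out by this rule. Their log2 ratios in E55 vs. E45 were 0.14, 0.14, 0.08 and 0.06. The rows kept were chr12_5778 and chrX_12832, which share the letters AAGGTGC at bases 2 to 8, the seed that is known for the miR-18 family.
chr12_5778: tAAGGTGCatctagtgcagatag
chrX_12832: tAAGGTGCatctagtgcagt

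The 3 unnamed rows with the seed of miR-17 were more abundant than the named ones. chr12_5782 had 6220 RPM at E45, 2830 RPM at E55 and 3743 RPM at E65. chr25_10686 had 3600.1, 1635 and 1897 RPM, and chrX_12834 had 1859, 700.0 and 767 RPM in the same libraries. Each was lowest at E55 and had its E65 level between the E55 and E45 levels, the order also listed for miR-17-5p, miR-106a and miR-106b. Their ratios in E55 vs. E45 were 0.455, 0.454 and 0.377, and in E65 vs. E45 they were 0.602, 0.527 and 0.413.

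chr12_5779, the unnamed row with the seed of miR-19b, had 1467 RPM at E45, 817 RPM at E55 and 1671 RPM at E65. Its ratio was 0.557 in E55 vs. E45 (interval 0.531 to 0.583) and 2.05 in E65 vs. E55 (1.95 to 2.14). It was 1.14 in E65 vs. E45 (1.09 to 1.19), and this last value became 0.993 when the libraries were scaled to the rows with a sheep name. Both sequences with this seed were thus at least 2.01 times higher at E65 than at E55 under every scaling tried. Among the 12 sequences with a member's seed, these were also the only ones above their E45 level at E65, chr12_5779 with the exception just given.

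The unnamed rows with the seed of miR-25 were all below their E45 level at both later stages. chr12_5785, which differs from miR-25 by T13C, T17C and A21T over 21 shared bases counted from the marked letters, had 2927 RPM at E45, 1804 RPM at E55 and 1440 RPM (3376 reads) at E65, and chrX_12839 had 307, 150.0 and 81.9 RPM. chr8_4267 had 356, 145 and 187 RPM and was the only one of these rows with a higher level at E65 than at E55. Aligned in the same way, chr8_4267 has 8 differences from miR-25 over 20 bases and chrX_12839 has 13 over 21, so these rows share little with it beyond the seed. In E65 vs. E45 the ratios of chr12_5785, chrX_12839 and chr8_4267 were 0.492, 0.266 and 0.527, against 0.687 for miR-25. The neighbouring rows with the letters AAGGTGC were also lower at each later stage, with 937, 430.2 and 331 RPM for chr12_5778 and 57.0, 16.7 and 7.68 RPM for chrX_12832. Their ratios in E65 vs. E45 were 0.353 (interval 0.325 to 0.383) and 0.135 (0.0775 to 0.221), the latter from 140 and 18 reads.

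In total the 14 related sequences, members included, were all lower at E55 than at E45, and this held under each scaling tried. Neighbouring rows left out of the 14, such as chrX_12824 (log2 ratio 0.14) and chr8_4269 (0.06), were higher at E55 on the deposited values. Of all 605 rows, 64.6% were below 0 in this comparison, and of the rows without a sheep name, to which 9 of the 14 belong, 72.5% were. None of the 12 sequences with a member's seed was highest at E55, against 26.4% of the 611 rows.

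**Figure D3:**
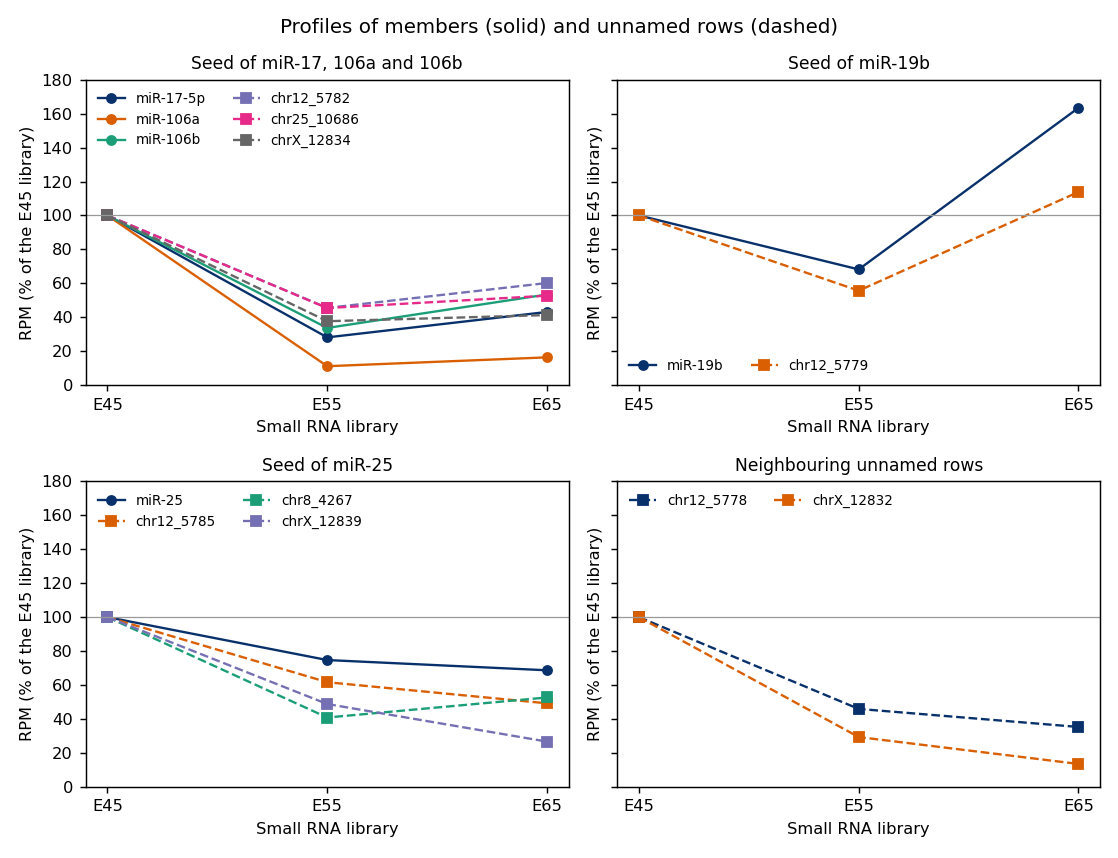
RPM of each sequence as a percentage of its E45 level in the 3 libraries, in 1 panel per seed, with circles and solid lines for members and squares and dashed lines for unnamed rows. Every line is below 100% at E55, and at E65 only the miR-19b panel reaches above it, at 163% for miR-19b and 114% for chr12_5779.

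Summed over members and unnamed rows, the seed of miR-17 made up 13208 RPM at E45 (interval 13065 to 13353), 5669 RPM at E55 (5596 to 5742) and 7204 RPM at E65 (7096 to 7313). The sum at E55 was 0.429 of that at E45, and the sum at E65 was 0.545 of it. The seed of miR-19b summed to 8749 RPM at E45, 5782 RPM at E55 and 13571 RPM at E65, so that the sum at E65 was 1.55 times that at E45 (1.52 to 1.58). The seed of miR-25 summed to 3727, 2202 and 1803 RPM, with 0.484 of the E45 sum at E65 (0.466 to 0.502). These directions were the same under the 4 other scalings tried.

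The shares of the seeds among these reads therefore differed between the libraries. They are shares by seed and not by membership of the family. chr8_4267 and chrX_12839 share little with miR-25 beyond the seed. Whether these rows belong to the family under another of its names was not tested. Of all reads with 1 of the 3 seeds, the miR-17 seed held 51.4% at E45 (Clopper-Pearson interval 51.0 to 51.8), 41.5% at E55 (41.1 to 41.9) and 31.9% at E65 (31.5 to 32.3). The miR-19 seed held 34.1%, 42.3% and 60.1% in the same order, and the miR-25 seed 14.5%, 16.1% and 7.99%. These shares do not depend on the scaling between libraries. Within the 5 named members the share of miR-19b was 81.4% at E45, 89.1% at E55 and 93.03% at E65. The summed level of the 5 members was 8948 RPM at E45, 5572 RPM at E55 and 12792 RPM at E65, and so followed miR-19b. It was higher at E65 than at E45 (ratio 1.43, 1.40 to 1.45), whereas the median of the members was lower. For members and unnamed rows together, 25684, 13652 and 22578 RPM, the ratio in E65 vs. E45 was 0.879, and it turned to 1.16 with median scaling and to 1.01 without the 10 most abundant rows.

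**Figure D4:**
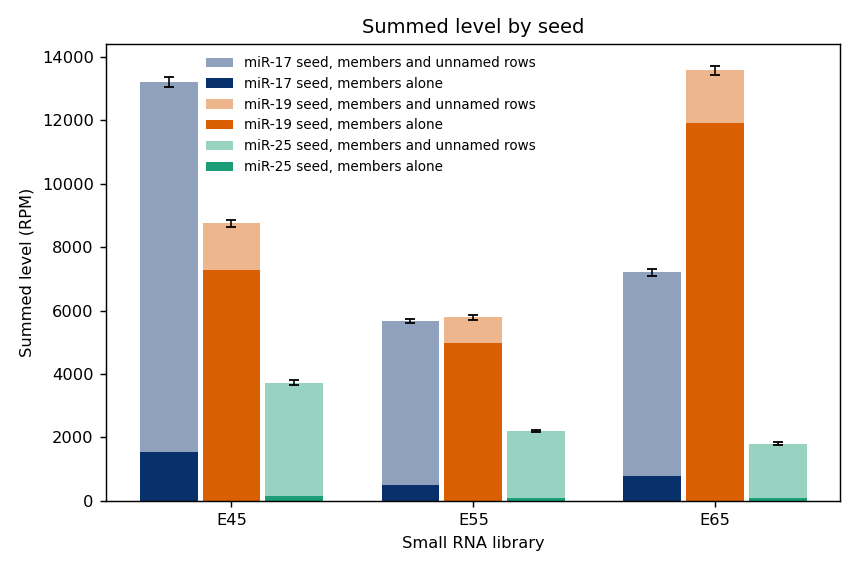
Summed level in RPM of all sequences with each seed in the 3 libraries, with members alone in the darker part of each bar and exact 95% Poisson intervals for the whole bar. The miR-17 seed is the largest at E45 with 13208 RPM, and the miR-19 seed is the largest at E65 with 13571 RPM.

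Rows of 1 chromosome did not share a single profile. For the printed rows of chromosome 12 the ratio in E65 vs. E45 was 0.353 for chr12_5778, 1.14 for chr12_5779, 0.602 for chr12_5782 and 0.492 for chr12_5785, with counting intervals that did not overlap. The reads of chr12_5785 cannot be placed on 1 chromosome, because the X row has the same sequence. Without it, the rows chrX_12832, chrX_12834 and chrX_12839 had ratios of 0.135, 0.413 and 0.266. In E55 vs. E45 the spread was smaller, from 0.455 to 0.557 on chromosome 12 without the shared sequence chr12_5785 (0.617) and from 0.293 to 0.488 on the X.

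Of the 115 other rows with a sheep name and a mean of at least 10 RPM, those nearest to the median profile of the members over the 3 libraries were miR-218a, miR-374b, miR-433-5p, miR-107 and miR-374a. Likeness was measured as the root mean square difference of centred log2(RPM + 1), which was 0.14, 0.16, 0.22, 0.25 and 0.38 in this order. miR-218a had 3425 RPM at E45, 1072 RPM at E55 and 1340.0 RPM at E65, and miR-107 had 661, 338 and 423 RPM. With 3 libraries this is a description of the order of levels.

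MYC is known to repress another set of miRNAs, among them let-7, miR-26a and miR-29, and these were listed beside the members. Of 33 names 21 were found, in 22 rows. In E55 vs. E45 their median log2 ratio was -0.04, against -0.26 for all rows, with 9 rows higher and 13 lower, where 35.4% of all rows were higher and 64.6% lower. This split turned to 16 higher and 6 lower with median scaling (median 0.28, 5 rows higher by at least 1) and was 11 and 11 without the 10 most abundant rows. With scaling to the rows with a sheep name it was 8 higher and 14 lower (median -0.24), with 2 rows higher and miR-29a (-1.11) lower by at least 1. By at least 1 on the deposited values, 3 of the 22 rows were higher, let-7b (1.09), let-7d (1.47) and let-7f (1.56), and none was lower, against 4.79% and 18.8% of all rows. Between E55 and E65 the median ratio of the list was 0.34, against -0.14 for all rows, and 17 rows were higher and 5 lower, where 41.3% of all rows were higher and 58.7% lower. miR-16b (1.21) was the 1 row higher by at least 1 and none was lower by it, against 6.79% and 18% of all rows. The split was 18 and 4 with median scaling and 15 and 7 with each sequence counted once in the library total. It was 19 and 3 without the 10 most abundant rows, where let-7b (1.00) was also higher by at least 1. In E65 vs. E45 the median ratio of the list was 0.39, against -0.48 for all rows, with 13 rows higher and 9 lower, where 29.2% of all rows were higher and 70.8% lower. By at least 1, 5 rows were higher and 1 lower, against 6.22% and 29% of all rows. Here let-7b (1.94), let-7d (1.92), let-7f (2.04), let-7g (1.59) and miR-150 (1.04) were higher by at least 1, of which let-7d rests on 4, 26 and 21 reads. miR-26a, the most abundant of the list, had 42993 RPM at E45, 44002 RPM at E55 and 56714 RPM at E65. miR-16b had its lowest level at E55, with 171, 115 and 267 RPM, the order also found for miR-19b. miR-29a had 119, 62.5 and 46.9 RPM and was the 1 row lower by at least 1 in E65 vs. E45 (-1.32). Of the other rows, let-7a (0.74), let-7i (0.58), miR-23a (0.80), miR-27a (0.52), miR-22-3p (0.38) and miR-30d (0.13) had log2 ratios above 0 in E65 vs. E45, as did miR-16b (0.64) and miR-26a (0.40). The ratio was below 0 for let-7c (-0.10), miR-23b (-0.19), miR-26b (-0.02), miR-29b (-0.75), miR-30a-3p (-0.31), miR-30a-5p (-0.04), miR-30b (-0.29) and miR-30c (-0.03). All of these rows except miR-29a and miR-29b lay above the median of all rows. These directions depended on the scaling. With median scaling 20 of the 22 rows were above 0 in E65 vs. E45, all 5 miR-30 rows among them, 8 rows were higher by at least 1, and none was lower by at least 1. Without the 10 most abundant rows 17 rows were above 0, 3 of the 5 miR-30 rows among them. With scaling to the rows with a sheep name 12 rows were above 0 and 10 below, with all 5 miR-30 rows below 0 and 4 rows higher by at least 1. At least 6 of the 7 let-7 rows were above 0 in this comparison, and both miR-29 rows below 0, on the deposited values and under the 4 other scalings.

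Markers of the cell types that flank skin can hold were read from the same libraries. The epidermal miR-200b had 76.6 RPM at E45, 121 RPM at E55 and 451 RPM at E65, and miR-200c had 41.5, 77.6 and 307 RPM, while miR-200a did not exceed 3 reads in any library. These 3 rows, of 8 names listed, summed to 119, 199 and 759 RPM. The dermal rows miR-143, miR-199a-3p and miR-152, 3 of 5 names, summed to 109119, 115421 and 130920.0 RPM, and only miR-143 followed the sum. It had 67984, 83128 and 95670.1 RPM, whereas miR-199a-3p had 32610.2, 22583 and 27995 RPM and miR-152 had 8525, 9710.0 and 7255 RPM, both lower at E65 than at E45 (with median scaling all 3 were higher). Epidermal and dermal markers were thus both present in the libraries labelled as skin. miR-133, the only muscle name found of 5, had 3106 RPM at E45, 6623 RPM at E55 and 2013 RPM at E65 and was highest in the library in which 4 of the 5 members were lowest. The leukocyte list gave miR-150 alone, with 6.11, 8.24 and 13.7 RPM. No row carried a name of the erythroid, endothelial, neuronal or liver lists, and such miRNAs may be among the unnamed rows. The part of these cell types in the levels of the members was not tested.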

How the data were processed

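Small RNA was sequenced from 3 pools of goat embryonic skin, 1 per stage. Per the labels, reads came from a pair of Illumina instruments, and which library ran on which is not given. The authors used Bowtie and deposited 1 RPM value (which they call TPM) per row and library. Build, version and filters are not given in the sources used here. Each column sums to 1000018, 1000009 or 1000012 over the 649 rows, 63 of which repeat a sequence already listed, so the values are relative to the listed rows.

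Reads were recovered from the RPM steps. Of 228, 216 and 256 low values, 100% were whole multiples of 1 read within a tolerance of 0.1. High rows may be off by a few reads. The 9 mRNA samples were not analysed here, because their gene identifiers are paired with no symbol. Ratios used log2(RPM + 1), a limit of 3 reads and a fold of 2. No member had both arms of its hairpin listed by name, so no arm ratio was computed. Intervals were checked on simulated data. Python 3.11.15, numpy 2.4.6, pandas 2.3.3, scipy 1.17.1 and matplotlib 3.10.9 were used. All members are named, with the 5 rows of nearest profile and every row found of the MYC list. The members and lists were chosen with earlier results of these data known. The alternatives were other pseudocounts, filters and scalings.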

Additional observations from a re-analysis of the deposited data

How the results depend on the processing

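All 3 medians of the members kept their sign under the 8 alternatives, and of 90 values for single members, under the 6 of these that change pseudocount or scaling, 70 moved by less than their counting interval and 20 by more. The median log2 ratio in E55 vs. E45 was -1.01 with pseudocount 10, -1.24 with median scaling, -1.76 with scaling to the rows with a sheep name and -1.06 among members with a mean of at least 10 RPM, which leaves out miR-106a. In E65 vs. E45 it was -0.51 with median scaling, -1.10 with scaling to the rows with a sheep name, -0.71 without the 10 most abundant rows and -0.72 among members with a mean of at least 10 RPM. The number of members lower by at least 1 in E65 vs. E45 was 1 with pseudocount 10, with median scaling and with the mean of at least 10 RPM, and it was 3 with scaling to the rows with a sheep name. With median scaling 1 member was higher. The summed level at E45, E55 and E65 was 7655, 5986 and 14409 RPM with median scaling, 9816, 5340.3 and 12241 RPM with scaling to the rows with a sheep name, 8477, 5441 and 13898 RPM without the 10 most abundant rows, and 9385, 5801 and 13091 RPM with each sequence counted once in the library total, a setting added after the data had been seen, as were the scalings of the unnamed and listed rows.

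With 1 pool per stage, no spread between embryos is known, and the stage cannot be told apart from the pool. Which instrument each library ran on is not given, so whether it differed between the stages is not known. Depth limits miR-106a most.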
